A study of Mus musculus with 12 samples.

Results

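Transcription can start at a promoter in one stage of meiosis and go unseen in the stages before and after it, and the promoter elements called in pachynema and in neither neighbouring stage are described here. They were found in leChRO-seq data, a run-on assay that maps engaged RNA polymerase along chromatin, from wild-type mouse spermatocytes of adult testes separated by size and density (STAPUT) into leptonema/zygonema, pachynema and diplonema, with 4 libraries in each of these 3 groups and no treatment in any of them. The methods name mice of the C57Bl/6J or DBA/2J background without saying which mice gave which library, and state that each fraction may hold spermatogenic cells of earlier or later stages. dREG, a classifier that recognises the paired, divergent pattern of polymerase at active promoters and enhancers, had been run by the authors on the merged libraries of each substage, which gave lists of 71107 leptonema/zygonema, 68352 pachynema and 38603 diplonema peaks. A dREG peak is called a transcriptional regulatory element (TRE) below when peaks of the 3 lists that overlapped or touched had been merged. A TRE became a member when it lay on chromosomes 1 to 19, held pachynema peaks and no leptonema/zygonema or diplonema peak, and had an edge under 1000 bp from an annotated transcription start site (TSS). There were 2925 members among 25410 promoter TREs on chromosomes 1 to 19, which is 11.5% (95% Wilson interval 11.1 to 11.9%), and among 63116 TREs of any position on these chromosomes. All merged TREs, the sex chromosomes included, numbered 65172, and each member held 1 pachynema peak. When each list was reduced to its 38603 highest-scoring peaks there were 931 members (4.74%), of which 349 were the same elements, and joining intervals separated by at most 100 bp gave 1657 members, of which 1549 were the same elements. Members were thus selected on the dREG calls, so their calls and scores are given as a description, and no test was made because each substage has 1 pooled list. Intervals for shares cover counting error only, and neighbouring TREs are not independent.

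Prophase I of meiosis runs from leptonema, when programmed DNA breaks form, through zygonema, when homologous chromosomes pair, to pachynema, when they are fully synapsed, and diplonema, when they begin to separate. Pachytene spermatocytes are known for a broad activation of meiotic and spermiogenic genes, in which the transcription factor A-MYB (gene Mybl1) and the bromodomain protein BRDT take part. A mammalian promoter usually fires in both directions, with polymerase pausing just downstream of the TSS and a divergent transcript leaving upstream, and a gene can own several promoters whose use changes between cell types.

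To show what kind of sequence carried these calls, the 150 bases that end just before the TSS are printed for members that were the sole promoter calls of a protein-coding gene, in descending order of score (GRCm38/mm10, 5′ to 3′ on the strand of the gene). Capitals mark matches on either strand to short consensus words, namely GGGCGG for SP factors, CCAAT for NF-Y, CCGGAAG for ETS factors, TATAAA for the TATA box, GGCNGTT for MYB factors, GTTGCNA for RFX factors, TGACGTNA for CREB and CREM, AAGATGGC for YY1 and the palindromic NRF1 consensus. 9130008F23Rik was left out because its window holds an annotated exon. Gm10663 and 1110002E22Rik, whose windows lay outside the member, were left out after their values had been seen.
Gstk1, chr6:42245785-42245934, plus strand: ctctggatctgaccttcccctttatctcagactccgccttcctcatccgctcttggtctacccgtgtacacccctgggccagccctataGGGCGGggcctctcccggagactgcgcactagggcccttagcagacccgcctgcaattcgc
Ccdc152, chr15:3303527-3303676, minus strand: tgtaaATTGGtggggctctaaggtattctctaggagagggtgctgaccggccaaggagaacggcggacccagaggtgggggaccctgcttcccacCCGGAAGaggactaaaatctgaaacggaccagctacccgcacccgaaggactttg
Trim30a, chr7:104465194-104465343, minus strand: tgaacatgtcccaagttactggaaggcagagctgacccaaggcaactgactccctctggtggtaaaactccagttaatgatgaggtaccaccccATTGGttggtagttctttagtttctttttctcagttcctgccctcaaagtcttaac
Homer2, chr7:81706945-81707094, minus strand: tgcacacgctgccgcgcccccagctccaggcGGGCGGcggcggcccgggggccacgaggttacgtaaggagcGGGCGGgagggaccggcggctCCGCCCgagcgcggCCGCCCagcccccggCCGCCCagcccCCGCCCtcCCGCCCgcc
Serpine2, chr1:79858697-79858846, minus strand: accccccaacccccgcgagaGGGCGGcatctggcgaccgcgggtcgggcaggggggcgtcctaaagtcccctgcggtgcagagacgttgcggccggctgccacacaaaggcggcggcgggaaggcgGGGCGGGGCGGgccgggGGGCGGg
Cyp2j6, chr4:96553662-96553811, minus strand: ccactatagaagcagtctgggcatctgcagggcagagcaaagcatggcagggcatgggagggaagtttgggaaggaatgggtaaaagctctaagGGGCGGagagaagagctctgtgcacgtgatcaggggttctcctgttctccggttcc
The windows differed in composition. Those of Homer2, a scaffold protein of the postsynaptic density, and Serpine2, a secreted inhibitor of serine proteases, had a GC content of 84.7% and 78.7%, with 24 and 20 CpG dinucleotides and repeated SP matches. That of Trim30a, an interferon-inducible member of the tripartite motif family, had a GC content of 46% and no CpG, with a CCAAT match on the opposite strand. Gstk1, a mitochondrial and peroxisomal glutathione transferase, had 8 CpGs and 1 SP match that began 61 bases before the TSS, and the window of Ccdc152, a coiled-coil protein, held 1 NF-Y and 1 ETS match. Cyp2j6, a cytochrome P450, had 3 CpGs and 1 SP match. None of the 6 windows held TATAAA or GGCNGTT, which says only that these letters were not in these bases, and the Gm10663 window that is not printed held 2 TATAAA matches.

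Members were mostly low-scoring calls. The dREG score of a member ran from 0.239 to 1.1, with a median of 0.37 and a middle range of 0.322 to 0.44 (25th to 75th percentile). In the same pachynema list, promoter TREs called in all 3 substages had a median score of 1.05, those shared with diplonema 0.486, and those shared with leptonema/zygonema 0.497. A score of at least 0.5 was reached by 414 members, 14.2% (12.9 to 15.5%), against 72% of all promoter TREs with a pachynema peak, and 18 members reached 0.8. When the 20742 promoter TREs with a pachynema peak were put into 10 equal groups in ascending order of score, members made up 54.8% of the first group, 26% of the third, 3.66% of the fifth and 0% of the 2 highest, beside 14.1% of all of them. The members were also narrow, with a median width of 370 bp against 1230 bp for TREs called in all 3 substages, whose merged width grows with the number of peaks they hold. Promoter TREs called in 1 other list alone were much the same, with a median score of 0.389 and width of 380 bp for leptonema/zygonema and 0.341 and 390 bp for diplonema, each score from its own list. The deposited p-value of the peak was at most 0.01 for 1882 members (64.3%).

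**Figure D1:**
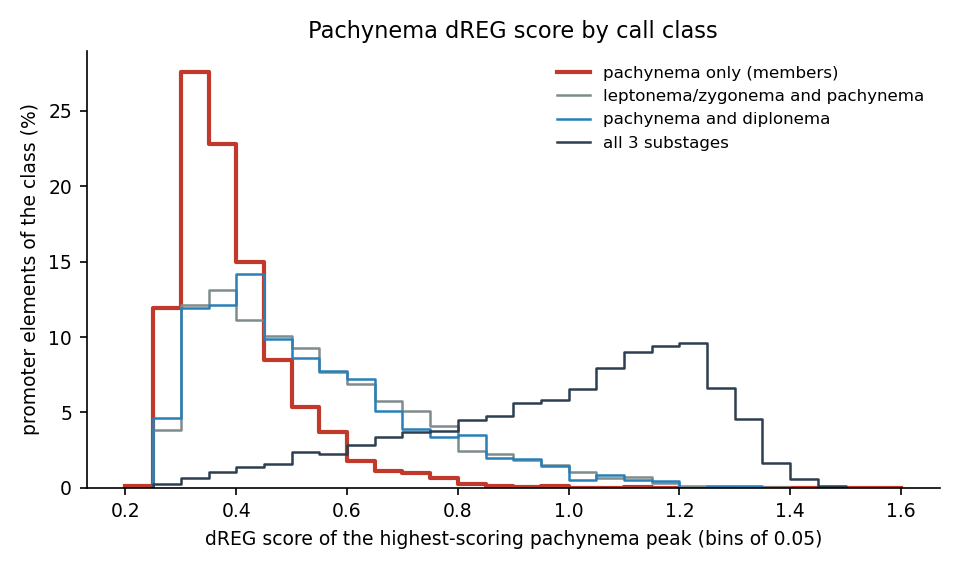
Distribution of the pachynema dREG score (x axis, no unit, bins of 0.05) as a percent of the promoter TREs of each call class (y axis). Lines stand for members (2925), TREs shared with leptonema/zygonema (4331), TREs shared with diplonema (944) and TREs called in all 3 substages (12542). Members lie at the low end, with a median of 0.37, and TREs called in all 3 substages at the high end, with a median of 1.05.

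Many members lay close to a peak of another substage, which could be at any position and not at a promoter alone. Of the 2925 members, 1606 had a leptonema/zygonema or diplonema peak within 500 bp of an edge, which is 54.9% (53.1 to 56.7%), and 810 (27.7%) had one within 100 bp. The share within 500 bp was below 50% under other settings. It was 45.9% with scores of at least 0.5 in all lists, 45.5% with lists of equal length and 44.4% with pachynema peaks of at least 0.5. When intervals up to 100 bp apart were merged it was 26.6%, where members with such a peak within 100 bp drop out by construction. Limits on all lists also removed low-scoring neighbouring peaks. The 1606 are called flanking members below, and the other 1319 isolated members. The median gap to the nearest such peak was 350 bp, with 580 bp for the leptonema/zygonema list and 1560 bp for the diplonema list, which is the shortest list. The nearest TRE of another call class, measured to its edge, was one called in all 3 substages for 1069 flanking members (66.6%). It was one shared by leptonema/zygonema and pachynema for 277 (17.2%) and one shared by pachynema and diplonema for 128 (7.97%). For the rest it was a TRE without a pachynema peak. For most flanking members the neighbouring TRE was therefore itself called in pachynema, and the member was an additional pachynema peak next to it. The same arrangement was common outside pachynema. A peak of another list lay within 500 bp for 49.2% of the 3710 promoter TREs called in leptonema/zygonema alone. For the 783 called in diplonema alone this share was 65.8% (62.4 to 69%).

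**Figure D2:**
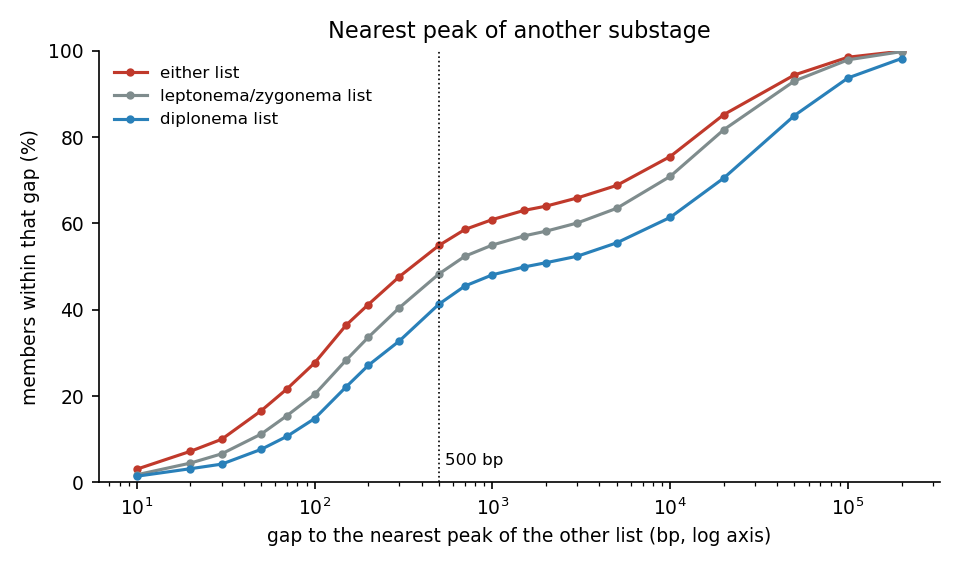
Cumulative percent of the 2925 members (y axis) whose nearest peak of another substage lay within a given gap from the edge of the member (x axis, bp, logarithmic). The curve for either list passes 27.7% at 100 bp, 54.9% at 500 bp (dotted line) and 60.9% at 1000 bp, and the diplonema curve lies below the leptonema/zygonema curve.

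Flanking and isolated members sat differently around the TSS. The TSS lay inside 252 of 1606 flanking members (15.7%, 14 to 17.6%) and inside 617 of 1319 isolated members (46.8%, 44.1 to 49.5%). Flanking members lay downstream of their nearest TSS in 892 cases (55.5%) and upstream in 462 (28.8%), and the median peak centre was 308 bp downstream. Their centres formed a main group from 300 to 700 bp downstream, a smaller one from 400 to 700 bp upstream and a narrow one at the TSS, where 5.79% lay within the 100 bp upstream of it. A flanking member cannot overlap the neighbouring peak, so part of this position is set by the rule. The centres of isolated members had a median of 14 bp downstream and a middle range from -129 to 404 bp, and 35.1% of these members lay wholly downstream and 18.1% wholly upstream. TREs called in all 3 substages held their TSS in 89.7% of cases. Flanking TREs called in leptonema/zygonema alone held theirs in 16.7% and lay downstream in 47.2%, a TSS share close to that of flanking members, and isolated ones held it in 47.3%, close to isolated members. Of the flanking members 53% had their centre in an intron and 25.2% in an exon, and of the isolated members 39.8% and 37.3%.

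**Figure D3:**
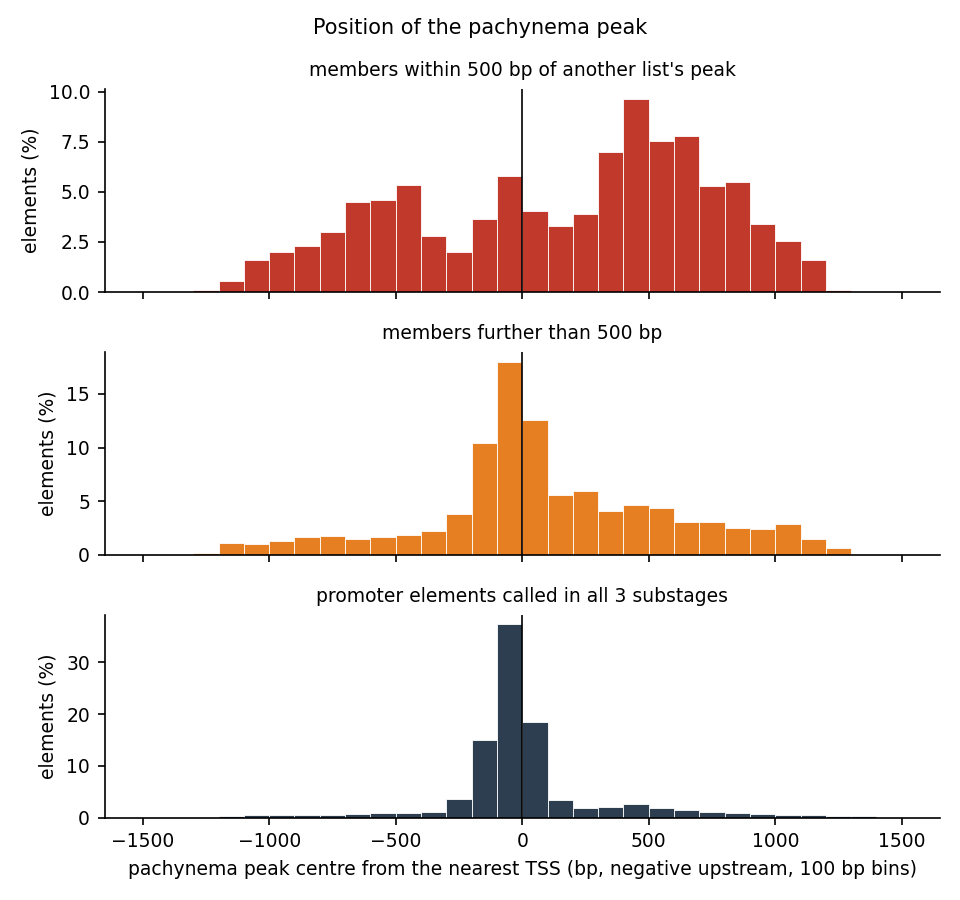
Percent of TREs (y axis, with its own scale in each panel) by the position of the pachynema peak centre relative to the nearest TSS (x axis, bp, bins of 100 bp, negative values upstream), for the 1606 flanking members, the 1319 isolated members and the 12542 promoter TREs called in all 3 substages. Flanking members peak at 400 to 500 bp downstream (9.65%), with lower peaks upstream (5.35%) and at the TSS (5.79%), while isolated members and TREs called in all 3 substages have their main peak at the TSS.

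At the level of genes, a member was more often an extra element of a gene already called elsewhere than its only promoter call. Of 20807 protein-coding genes on chromosomes 1 to 19, 2151 had a member under 1000 bp from a TSS, which is 10.3% (9.93 to 10.8%). Of these, 1721 also had a leptonema/zygonema or diplonema peak near a TSS, and 1341 had peaks of all 3 lists. Of all protein-coding genes, 12734 had a pachynema peak, and 10439 of these (50.2% of all) had peaks of all 3 lists. Among these 12734 genes 442 had no peak of another list, against 430 of the 2151 genes with a member. Being called elsewhere was thus common among genes with a pachynema peak, and less common among those with a member. The rule bears on this difference, because it keeps only elements without a peak of the other lists. For 430 genes, 2.07% of protein-coding genes (1.88 to 2.27%), members were the sole promoter calls. This count was 237 with lists of equal length, 79 with pachynema peaks of a score of at least 0.5 alone and 732 without the diplonema list. Counted by peaks of any kind near a TSS, 442 genes had pachynema calls alone, 591 leptonema/zygonema calls alone and 91 diplonema calls alone, and 303 genes had pachynema and diplonema calls without a leptonema/zygonema call. A gene held several members in 211 cases, with a maximum of 4.

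Some isolated members lay over an alternative start of a gene that was called elsewhere. An isolated member held the TSS of a protein-coding gene in 437 cases. In 280 of these (64.1%, 59.5 to 68.4%) the gene had no leptonema/zygonema or diplonema peak at any TSS, and in 157 (35.9%) it had one. In 128 the nearest such called TSS of the gene was more than 1000 bp away, at a median distance of 29979 bp and at most 612378 bp. The members thus included starts of genes with no other call and additional starts of genes called elsewhere.

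The member with the highest score lay over such an alternative start of Grik2, a subunit of kainate-type glutamate receptors. Its peak at chr10:49433221-49433640 held an annotated TSS and had a score of 1.1, while the nearest leptonema/zygonema peak was 166150 bp and the nearest diplonema peak 85310 bp from it. At the promoters of Grik2 as a whole the highest leptonema/zygonema score was 0.316 and no diplonema peak was listed, and scores are not scaled between lists. Pde4d, a phosphodiesterase that degrades cyclic AMP, had a member of score 0.827 at chr13:109926611-109927000, over a start near the 3′ part of the gene. The highest leptonema/zygonema score at any Pde4d promoter was 0.556 and the highest diplonema score 0.377. Pld1, a phospholipase D, had a member of 0.81 at chr3:27983941-27984230, and its promoters reached 0.332 in leptonema/zygonema and 0.537 in diplonema.

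Other high-scoring members lay close to a peak of another substage. Dok6, a docking protein of receptor tyrosine kinases, had a member of score 0.925 that was 20 bp from a leptonema/zygonema peak, and its promoters reached 0.303 in that list and had no diplonema peak. Adgrv1, a very large adhesion receptor of sensory hair cells, had a member of 0.952 with a leptonema/zygonema peak 280 bp away, and 0.411 was the highest leptonema/zygonema score at its promoters. For Adamts3, a procollagen-cleaving protease, the member scored 0.871, the gap to leptonema/zygonema was 130 bp and the best score in that list was 0.402. In these 3 genes a leptonema/zygonema call lay beside the member, and the member stayed separate because the intervals did not meet. Cers4, a ceramide synthase, had a member of 0.865 that was 30 bp from a leptonema/zygonema and 20 bp from a diplonema peak, and its promoters were called in all 3 substages at 0.766, 0.939 and 0.751.

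Among genes with members as sole promoter calls, the highest scores belonged to Gstk1 (0.975, chr6:42245711-42246050, TSS inside), Gm10663 (0.96), Ccdc152 (0.874, chr15:3303111-3303820, TSS inside), Trim30a (0.812, chr7:104465101-104465410, TSS inside), 9130008F23Rik (0.809), Homer2 (0.797, chr7:81706881-81707370), Serpine2 (0.773, chr1:79858511-79858830) and 1110002E22Rik (0.766). The nearest peak of the other lists was 13370 bp from the Trim30a element and 18600 bp from the Gstk1 element. The Homer2, Ccdc152 and Serpine2 elements were more than 50000 bp from any such peak. The TSS also lay inside the 9130008F23Rik, Homer2 and Serpine2 elements. The Gm10663 element differed from these, since it lay 868 bp from the annotated TSS, and its leptonema/zygonema gap was 7760 bp. Another Gm10663 member, of score 0.598, lay 268 bp from that TSS. The 1110002E22Rik element lay 249 bp from its TSS. None of these 8 genes is in the germ cell gene lists described next.

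Listed genes of meiosis and sperm formation that had a member all had a peak of another substage as well. In each of 10 lists of germ cell genes (synapsis and recombination, the piRNA pathway, meiotic division, transcription regulators, RNA binding, acrosome, axoneme, spermatid chromatin, energy metabolism and ubiquitin), the number of genes whose sole promoter calls were members was 0, beside 2.07% of all protein-coding genes. A member was present in 2 of 42 synapsis and recombination genes, 2 of 29 piRNA pathway genes, 2 of 30 division genes, 2 of 32 transcription regulators, 3 of 31 RNA-binding genes, 5 of 55 acrosome genes, 9 of 99 axoneme genes, 2 of 25 spermatid chromatin genes, 2 of 35 metabolism genes and 1 of 33 ubiquitin genes, beside 10.3% of all protein-coding genes. The shares ran from 3.03% to 9.68%. Most listed genes had a promoter peak in leptonema/zygonema already, namely 40 of the 42 synapsis genes, 93 of the 99 axoneme genes, whose products build the sperm flagellum, and 22 of the 25 spermatid chromatin genes. Among all 20807 protein-coding genes, 10439 (50.2%) had promoter peaks of all 3 lists and 7332 (35.2%) had none. A gene without a pachynema peak cannot hold a member, so the 10.3% and 2.07% include genes that could have none. Of the 12734 protein-coding genes with a pachynema peak, 2151 had a member and 430 had members as sole calls. The difference from the listed genes was not tested.

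Piwil1 shows what such an extra element looked like. It encodes MIWI, the PIWI protein that binds pachytene piRNAs, and its highest promoter score was 0.796 in leptonema/zygonema, with 1.12 in the pachynema list and 1.26 in the diplonema list. Its member, of score 0.579, lay inside the gene at chr5:128735311-128735560, 614 bp upstream of an internal Piwil1 TSS, with a leptonema/zygonema peak 180 bp and a diplonema peak 100 bp away. The nearest annotated start, at 469 bp, belonged to 4930553I04Rik, an annotated transcript of unknown status on the opposite strand. Brdt, the testis bromodomain protein, scored 1.27, 1.23 and 0.981 in the 3 substages, and its member of 0.357 began 619 bp downstream of the TSS, 260 bp from a leptonema/zygonema peak. Adam3, a sperm surface protein needed for passage into the oviduct, reached promoter scores of 0.29, 0.926 and 1.17 in the same order of substages, with a member of 0.293 that was 440 bp from a diplonema peak.

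Up to 4 genes of each list are named with the score of their member. Among synapsis genes Hfm1, a helicase of crossover formation, had a member of 0.331 beside promoter scores of 0.999, 0.944 and 0.862, and Meikin, a meiosis I kinetochore regulator, one of 0.284 beside 0.379, 0.338 and 0.321. The members of Bub1b, a kinase of the spindle checkpoint, and Aurkb, the Aurora kinase of the chromosomal passenger complex, scored 0.549 and 0.262. Nkapl, of the piRNA list, had one of 0.322, and Fhl4, a transcriptional coactivator of germ cells, one of 0.357 that lay nearer to a start of Tmem263. The members of Cstf2t, a polyadenylation factor of meiotic cells, Khdrbs3 and Pabpc6, both RNA-binding proteins, scored 0.4, 0.351 and 0.299.

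The acrosome and axoneme lists are the longest and held 5 and 9 genes with a member. Spaca6, which sperm need for fusion with the egg, had a member of 0.468, Eqtn, an acrosomal membrane protein, one of 0.464, Crisp2 one of 0.355 and Tex101 one of 0.354. In the axoneme list, the members of Tcte1, a component of the dynein regulatory complex, Ttc29, a protein of flagellar assembly, Hydin, of the central pair apparatus, and Tekt4, a tektin, scored 0.535, 0.521, 0.477 and 0.39. The member of Ttc29 was an isolated one over an internal start, 59470 bp from the nearest other peak, whereas that of Tcte1 was 90 bp and that of Hydin 80 bp from one. Ubl4b, a ubiquitin-like protein of spermatids, had a member of 0.397, Slc2a5, the fructose transporter GLUT5, one of 0.457, Got1l1 one of 0.29 and the ubiquitin ligase March7 one of 0.447.

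Markers of the cell types that the fractions could hold were examined the same way. For comparison, 12734 of all 20807 protein-coding genes had a pachynema promoter peak, and 10439 (50.2%) had promoter peaks of all 3 lists. Of the 12734, 2151 had a member and 430 had members as sole calls. Of 14 markers of pachytene spermatocytes, all 14 had a leptonema/zygonema and a pachynema promoter peak and 12 a diplonema peak. Of these, 3 (Piwil1, Brdt and Adam3) had a member (21.4%, 7.57 to 47.6%), an interval that includes the 10.3% of all protein-coding genes. Of 11 markers of leptotene and zygotene spermatocytes, 11, 11 and 10 had a leptonema/zygonema, a pachynema and a diplonema peak, and Tex101 had a member (9.09%). Of 13 spermatid markers on these chromosomes, 11, 10 and 9 had a peak in these lists, and Tekt4 and Odf1 had a member (15.4%, 4.33 to 42.2%). Members were the sole calls for 1 gene in each of 4 marker lists, beside 2.07% of all protein-coding genes, and single genes say nothing of a cell type. They were Ret, the GDNF receptor kinase of spermatogonial stem cells (0.473), Cldn11, the tight junction claudin of Sertoli cells (0.695, chr3:31149631-31150040, TSS inside), Cyp11a1, the cholesterol side-chain cleavage enzyme of Leydig cells (0.414), and Pdgfra, a growth factor receptor of peritubular cells (0.265). Zbtb16 (0.582) and Sall4 (0.389, at a start of Gm14261) of the spermatogonial list and Aard (0.443) and Gata4 (0.309) of the Sertoli cell list had a member beside calls of other substages, so that 25% (8.89 to 53.2%) of the spermatogonial and 30% (10.8 to 60.3%) of the Sertoli cell markers had one. Over their whole lists, leptonema/zygonema, pachynema and diplonema peaks were present for 8, 9 and 5 of 12 spermatogonial markers, for 4, 6 and 5 of 10 Sertoli cell markers, for 0, 2 and 1 of 8 Leydig cell markers, for 1, 2 and 0 of 6 peritubular myoid cell markers, and for 2, 0 and 0 of 10 macrophage and blood markers. Among all 20807 protein-coding genes, 12734 had a pachynema peak and 7332 (35.2%) had no peak in any list. The part of other cells in the members was not tested, and the lists hold no measure of how many cells of each type a fraction contained. The paper estimated the purity of each fraction by staining and names elongated spermatids as most of the contamination.

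Members outside protein-coding genes were a smaller part. The nearest TSS was that of a protein-coding gene for 2118 members (72.4%, 70.8 to 74%), of a lincRNA for 269 (9.2%), of a processed pseudogene for 174 (5.95%) and of an antisense RNA for 119 (4.07%). The share of protein-coding genes was 83.5% among TREs called in all 3 substages. Processed pseudogenes are reverse-transcribed copies of mRNAs. Their share among members (5.95%, 5.15 to 6.87%) was close to the 5.18% of TREs called in leptonema/zygonema alone and the 4.98% of TREs shared by pachynema and diplonema, against 1.78% of TREs called in all 3 substages. Among members it was 10.4% (8.85 to 12.1%) for isolated and 2.3% (1.68 to 3.16%) for flanking ones. Of 8924 annotated processed pseudogenes 623 had a pachynema peak, of which 166 had a member and 124 had members as sole calls. Of the protein-coding genes 12734 had a pachynema peak, of which 2151 had a member and 430 had members as sole calls. Reads from such copies can be hard to place beside their parent genes, and their part in these calls was not tested.

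The 5 highest-scoring members of other biotypes were isolated members. A member of score 0.995 began 696 bp downstream of the start of Mir8110, a microRNA gene. The lincRNA Gm48823 had a member of 0.944 over its TSS at chr12:73822061-73822790, with the nearest peak of the other lists at 23800 bp, and the lincRNA Gm48901 had one of 0.896 at chr9:27553141-27553860. AI463229, also a lincRNA, had one of 0.822. These 4 genes had no leptonema/zygonema or diplonema peak near a TSS. Gm14266, a lincRNA with a member of 0.825, had other starts with scores of 1.05, 1.09 and 0.972 in the 3 substages.

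By family, the shares of genes with a member varied. A member was found in 52 of 385 Zfp genes (13.5%, 10.5 to 17.3%), in 42 of 358 Slc solute carriers (11.7%) and in 27 of 235 Tmem genes (11.5%), beside 10.3% of all protein-coding genes. Among 68 Trim genes, which encode tripartite motif proteins with roles in innate immunity and ubiquitination, 13 had a member (19.1%, 11.5 to 30%), and members were the sole calls for 7 of them, beside 2.07% of all protein-coding genes, namely Trim10, Trim21, Trim30a, Trim30d, Trim5, Trim62 and Trim8. Shares of this size were also found in the Ttc (21.4%), Map (20.9%) and Zbtb (20%) groups. Of 34 H2- genes, which encode proteins of the major histocompatibility complex, 8 had a member (23.5%, 12.4 to 40%), with H2-DMb1, H2-Q2 and H2-Q7 as genes with members alone. Both families contain near-identical copies among which reads may be split, some of their genes are neighbours and so are not independent, and they were picked out after their counts had been seen.

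Members were lower in GC and CpG content than TREs called in all 3 substages. In 200 bp around the centre of the peak, the median GC content was 52% and the median number of CpGs 5 in members, against 60% and 13 in TREs called in all 3 substages and 50.5% and 3 in TREs called in leptonema/zygonema alone. Flanking members had 49.5% GC and 4 CpGs, isolated members 54.5% and 6, and members of genes with members as sole calls 60% and 10. The last of these matched the median GC content of TREs called in all 3 substages, with fewer CpGs. SP matches (GGGCGG) were found in 19.4% of members, 37.6% of members of genes with members as sole calls, 43.3% of TREs called in all 3 substages and 32.9% of all promoter TREs. ETS matches (CCGGAAG) were found in 3.28% of members and 2.4% of those of genes with members as sole calls, against 11.1% and 7.24%, so the 2 words did not run in parallel. CREB and CREM matches (TGACGTNA) were found in 1.06% of members and 2.85% of all promoter TREs, NF-Y matches (CCAAT) in 22.5% and 25.4%, TATAAA in 7.93% and 6.16%, YY1 matches in 1.13% and 1.99%, and NRF1 matches in 0.137% and 0.767%.

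The consensus of A-MYB was examined because this factor acts in pachynema. GGCNGTT was present within 100 bp of the centre in 263 of 2925 members (8.99%, 8.01 to 10.1%), which is near the 9.49% of all promoter TREs. It was present in 14.5% (12.4 to 16.9%) of TREs shared by pachynema and diplonema, in 7.73% of those shared by leptonema/zygonema and pachynema, in 7.12% (6.33 to 7.99%) of those called in leptonema/zygonema alone and in 10.5% of those called in all 3 substages. The share in members thus lay close to that of all promoter TREs, with an interval below that of TREs shared by pachynema and diplonema. Its lower limit (8.01%) almost met the upper limit (7.99%) of TREs called in leptonema/zygonema alone. Within each range of GC content the intervals of members and of these TREs overlapped, for example 8.71 to 12.2% and 6.22 to 8.86% at 45 to 55% GC.

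The share differed with the score. It was 8.27% (7.1 to 9.63%) in the 1825 members of a score under 0.4, 9.15% (7.48 to 11.1%) in the 951 members of 0.4 to 0.6, and 16.8% (11.6 to 23.6%) in the 149 members of 0.6 and over, where 25 members held it. At 0.6 and over, TREs shared by pachynema and diplonema stood at 18.1% (14.1 to 22.9%) and TREs shared by leptonema/zygonema and pachynema at 7.05% (5.83 to 8.5%). Median GC content in this score range was 55.5%, 55.5% and 56.5% in the 3 classes. TREs called in all 3 substages stood at 10.9% (10.3 to 11.4%) in this range, with a median GC content of 60.5%. Members redefined with a score of at least 0.5 in all lists (1708, median score 0.582) held the word in 9.72%, and those from lists of equal length (931, median 0.592) in 9.34%. The intervals of the high-scoring members and of the TREs shared with leptonema/zygonema did not overlap. The lower limit of these members, 11.6%, was just above the upper limit of TREs called in all 3 substages, 11.4%. No test was made, and the score had already served the rule through the call. The RFX word GTTGCNA was found in 6.04% (3.21 to 11.1%) of the high-scoring members, in 6.39% of all members and in 8.71% of all promoter TREs.

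**Figure D4:**
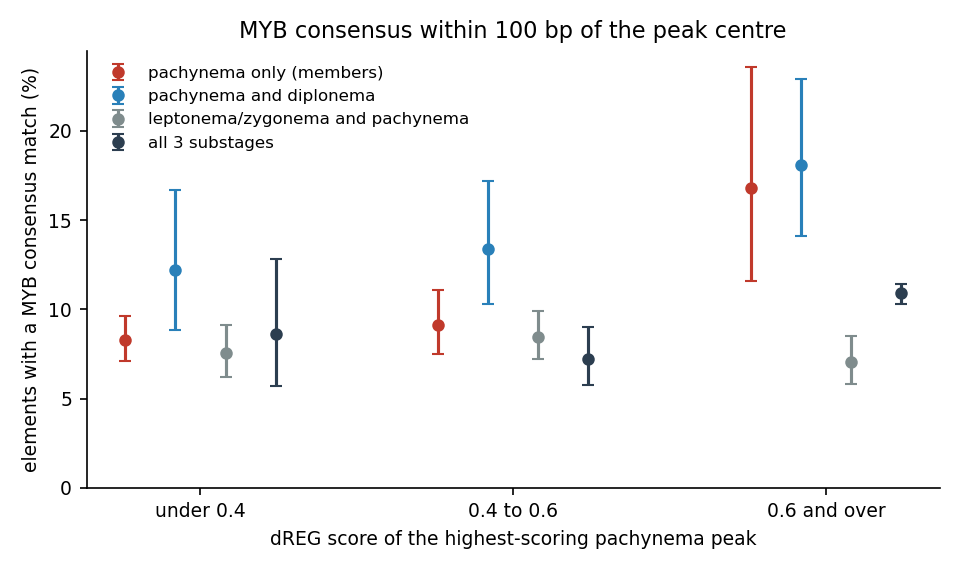
Percent of promoter TREs with GGCNGTT on either strand within 100 bp of the centre of the pachynema peak (y axis), by dREG score of that peak (x axis, 3 ranges) and call class. Points are shares and bars are 95% Wilson intervals. At 0.6 and over, members (16.8% of 149) lie beside TREs shared with diplonema (18.1% of 293) and above TREs shared with leptonema/zygonema (7.05% of 1418). TREs called in all 3 substages (10.9% of 11343) lie between.

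To show these matches in place, 27 bases around the word are given for 8 high-scoring members that hold it, on the strand of the match, with the word in capitals (GRCm38/mm10, 5′ to 3′).
Gm48901, chr9:27553578-27553604, minus strand: aactattgttGGCGGTTaggggagaag
Mir5624, chr13:93790355-93790381, plus strand: agctgctttcGGCTGTTatccccataa
Cdc42ep3, chr17:79353051-79353077, minus strand: ctgggtctgtGGCAGTTtctgttttcc
5033426E14Rik, chr8:107869999-107870025, plus strand: tgtggcccagGGCTGTTatgcctccag
Kif21a, chr15:91050389-91050415, minus strand: agctaacaaaGGCTGTTtccacagagc
Npl, chr1:153549324-153549350, minus strand: tttaaaacttGGCGGTTttaaatttaa
4933402J15Rik, chr14:74355468-74355494, minus strand: tcattgaatgGGCAGTTccttcgagtt
Gm5697, chr1:28801496-28801522, minus strand: aattgagaaaGGCCGTTgggatgatgt
All 4 bases were seen at the free position of the word. The scores of these members were 0.896 for the lincRNA Gm48901, 0.78 for the microRNA gene Mir5624, 0.751 for Cdc42ep3, an effector of the GTPase CDC42, 0.743 for the lincRNA 5033426E14Rik, 0.74 for Kif21a, a kinesin motor, 0.734 for Npl, which cleaves sialic acid, 0.728 for the lincRNA 4933402J15Rik and 0.702 for the processed pseudogene Gm5697. A match shows that these letters are present and not that a factor was bound.

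The members were spread over the chromosomes, from 9.82% of promoter TREs on chromosome 11 to 13.9% on chromosome 18, with a median of 11.7%. At the limit of the rule, Gm48075 (999 bp from a TSS, score 0.329), Gm9951 (999 bp, 0.334) and Gm8973 (997 bp, 0.791) were just inside, and TREs near Ptprd (1000 bp, 0.381), Cenpo (1003 bp, 0.405) and Washc3 (1006 bp, 0.289) were just outside. On the side of the calls, 90 members were 10 bp from a peak of another list. In 24 promoter TREs the pachynema peak was joined to another list by an overlap of at most 20 bp, and 8 of these were joined by touching alone.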

How the data were processed

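leChRO-seq was made from 12 samples (leptonema/zygonema, pachynema or diplonema, with 4 libraries per group). The authors removed duplicates with molecular identifiers, cut adapters (cutadapt), mapped reads to mm10 (BWA) and ran dREG with default settings on merged libraries. The labels and methods differ on single-end or paired-end sequencing. The deposited lists give each peak a dREG score, which has no unit, and a p-value. They hold no read counts. The study states a range of uniquely mapped reads over its assays and a normalization factor per library, neither of which was taken here as the depth of a pooled list.

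Distances were taken to 132629 TSS positions of GENCODE M21 in Python 3.11.15 (pandas 2.3.3, numpy 2.4.6). The nearest TSS was chosen by edge distance, with ties to protein-coding genes, and a gene was called by peaks under 1000 bp from any of its TSSs. Motifs and base composition were read from GRCm38 in 200 bp around the midpoint of the highest-scoring peak. Sequences of members on chromosome 18 are not printed. The steps were checked on simulated data. Named genes were the 12 highest-scoring members at protein-coding genes, the 5 highest of other biotypes, the 8 highest among genes with members as sole calls and up to 4 per gene list. The members and lists were chosen with earlier results of these data known. Alternatives covered score, p-value and list length limits, merging, TSS distance and set, and motif settings.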

Additional observations from a re-analysis of the deposited data

Results flagged for a closer look

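The sex chromosomes were outside the rule, and a signal was present there too: 77 of 954 promoter TREs on the X chromosome (8.07%, 95% Wilson interval 6.51 to 9.97%) and 2 of 46 on the Y chromosome were called in pachynema alone, against 11.5% on chromosomes 1 to 19. The X and Y chromosomes are transcriptionally silenced in pachynema as background knowledge, and the difference in shares was not tested.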

How the results depend on the processing

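No paired analysis was possible because no result comes from a test: the libraries of a substage were pooled before peaks were called, which also leaves no replicate to omit. Of 69 recomputed values 20 stayed within the counting interval of the reported value, or within 1.5 times a count. The reported values were 2925 members, 11.5% of promoter TREs, 54.9% flanking, 430 genes with members as sole calls, 72.4% at protein-coding genes, 8.99% with GGCNGTT and a median score of 0.37. With a score of at least 0.5 in all lists there were 1708 members (9.1%), of which 414 were the same elements, 45.9% were flanking, 76.6% at protein-coding genes and the median score was 0.582, while the genes numbered 420. With a p-value of at most 0.01 the median score was 0.414. With lists of equal length (38603 peaks) there were 931 members (4.74%), 45.5% flanking, 237 genes, 74.3% at protein-coding genes and a median of 0.592. Merging intervals up to 100 bp apart gave 1657 members (8.25%), 26.6% flanking, 69.1%, 10.1% with GGCNGTT and a median of 0.377, with 429 genes. A TSS distance under 500 bp gave 9.86%, 51.6% flanking and 0.375, and TSSs of protein-coding transcripts gave 10.8%, 61.7% flanking and, by construction, 100%. Members with no other peak within 500 bp numbered 1319 (5.19%), with 0% flanking by construction, 65.9%, 10.2% and 0.378, and 426 genes. Pachynema peaks of at least 0.5 set against all other peaks gave 414 members (1.7%), 44.4% flanking, 79 genes, 68.8%, 12.3% and 0.569. GGCNGTT was found in 4.41% of 50 bp and 16.5% of 200 bp half-windows, GCAGTT in 11.3% and CNGTTG in 24.1%. Flanking members were 27.7% at 100 bp and 60.9% at 1000 bp. In alternatives chosen after seeing the data, leaving out the diplonema list gave 4949 members (17.5%), 51.4% flanking, 732 genes, 10.1% and 0.392, and the deposited centre column gave 8.96% with GGCNGTT. Flanking members were below 50% with either score limit, with equal lists and with 100 bp merging, for the last of these partly by construction. Both the number of members and the number of genes moved by over 1.5 times with equal lists, with the limit on pachynema peaks alone and without diplonema. The number of members also did so with a score of at least 0.5 in all lists, with 100 bp merging and without flanking members, where the number of genes did not. Pooled lists hold neither depth nor replicate spread, so a call missing from a list does not show that transcription was absent.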
